A study of Mus musculus with 9 samples.

Results

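Chga, Vgf, Tecta and Acta1 are 4 genes best known from endocrine cells, neurons, the inner ear and skeletal muscle. They were taken by symbol from the 24391 gene rows of an RNA-seq count table and were chosen by their read counts, which were far higher in CD43-ckit- cells than in CD43++ckit+ cells of leukaemic bone marrow. All 4 were found and all 4 were among the 12573 genes that passed the filter on low counts. Acta1 passed it without any CD43++ckit+ library, through 3 CD43-ckit- and 2 CD43+ckit- libraries. The cells came from the bone marrow of C57BL/6 mice aged 6-8 weeks that carried an AML1-ETO9a leukaemia, AML1-ETO9a being a splice variant of the AML1-ETO fusion protein with a shortened ETO end. They had been sorted by surface CD43, a leukocyte sialoglycoprotein, and c-Kit, the stem cell factor receptor, into CD43-ckit-, CD43+ckit- and CD43++ckit+ populations with 3 libraries each. All 3 populations share the strain, age, tissue and leukaemia model, and healthy marrow was not analysed here. The labels do not say how the leukaemia was produced or whether replicate libraries stand for different mice, so their spread may be technical.

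Chromogranin A, encoded by Chga, is an acidic protein that aggregates in the trans-Golgi network, packs hormones into dense core granules and is cut there into bioactive peptides. Vgf encodes a nerve growth factor inducible precursor that is counted with the granins and follows the same regulated secretory route. Tecta encodes alpha-tectorin, a zona pellucida domain glycoprotein of the tectorial membrane, the gel that couples sound to the hair cells of the cochlea. Acta1 encodes the alpha actin of skeletal muscle thin filaments. Promoters of Chga and Vgf are known for regulation by cAMP response element binding protein (CREB), and that of Acta1 for regulation by serum response factor (SRF), which binds the CArG box.

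Because the promoter elements bear on the CREB and SRF lists described further on, the 250 bases before the annotated start are shown for Chga and Acta1, read from RefSeq promoter windows of build GRCm38.p6. The Chga window is chr12:102554691-102554940 on the plus strand, and capitals mark TGACG, the core of the cAMP response element. The Acta1 window is chr8:123894776-123895025 on the minus strand, and capitals mark its CArG box.
Chga: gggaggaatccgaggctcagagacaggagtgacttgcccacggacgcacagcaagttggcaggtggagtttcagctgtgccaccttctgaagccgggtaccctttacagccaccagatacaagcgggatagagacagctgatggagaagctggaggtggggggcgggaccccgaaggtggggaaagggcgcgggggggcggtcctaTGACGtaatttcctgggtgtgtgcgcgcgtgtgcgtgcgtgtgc
Acta1: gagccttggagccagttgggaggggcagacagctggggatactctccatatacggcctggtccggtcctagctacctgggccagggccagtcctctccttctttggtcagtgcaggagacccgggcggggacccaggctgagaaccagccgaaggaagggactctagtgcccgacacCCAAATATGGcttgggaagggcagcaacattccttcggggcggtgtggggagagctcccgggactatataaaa
The Chga core lay 44 to 40 bases before the start, and the Acta1 box CCAAATATGG lay 73 to 64 bases before it. Among 32851 RefSeq windows of the same length searched on both strands, 17.8% held TGACG, 1.55% held the full element TGACGTCA and 1.47% held a CArG box. The full element contains the core, so those shares overlap. Neither of the 2 Tecta windows held these motifs. No member's window held a GATA site (AGATAA or TGATAA) or a RUNX site (TGTGGT), which stood in 16.6% and 14.0% of all windows. Promoter windows were matched for 3 of the 4 genes, Vgf not among them.

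Levels are TMM-scaled CPM, in which counts are divided by a library size that TMM sets from the bulk of genes. Chga reached 50972, 36761 and 32546 CPM in the CD43-ckit- libraries, against 3785, 4494 and 3341 CPM in CD43+ckit- and 102.2, 49.98 and 261.5 CPM in CD43++ckit+. No CD43-ckit- library came near a library of another population, and the CD43+ckit- libraries in turn lay above all CD43++ckit+ libraries. In raw counts this single gene took 3.003%, 2.70% and 2.52% of the CD43-ckit- libraries, 0.399%, 0.490% and 0.380% of the CD43+ckit- libraries, and 0.0129%, 0.00640% and 0.0368% of the CD43++ckit+ libraries. The exact (Clopper-Pearson) 95% interval of the lowest of these shares ran from 0.00611% to 0.00670%, and such intervals cover counting error only. Chga averaged 40093 ± 9654 CPM in CD43-ckit- cells, against 3874 ± 581 CPM in CD43+ckit- cells and 137.9 ± 110.2 CPM in CD43++ckit+ cells (SD, n = 3 each). CD43++ckit+ library 3 held 5.23 times as much Chga as library 2, the lowest of that population.

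Vgf followed the same order at a lower level. Its values were 772.6, 629.0 and 536.4 CPM in the CD43-ckit- libraries, against 2.39, 13.0 and 7.28 CPM in the CD43+ckit- libraries and 1.72, 0.985 and 1.70 CPM in the CD43++ckit+ libraries. The CD43-ckit- libraries stood apart, while the lowest CD43+ckit- library was close to the 2 higher CD43++ckit+ libraries without overlapping them. Mean levels were 646.0 ± 119.0 CPM in CD43-ckit- cells, against 7.55 ± 5.30 CPM in CD43+ckit- cells and 1.47 ± 0.417 CPM in CD43++ckit+ cells (SD, n = 3 each).

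Tecta counts were 1343, 1354 and 1090 in the CD43-ckit- libraries, against 17, 43 and 46 in the CD43+ckit- libraries and 12, 4 and 14 in the CD43++ckit+ libraries. Scaled, this gave 105.5, 88.6 and 78.2 CPM in the CD43-ckit- libraries, against 0.572, 1.44 and 1.47 CPM in the CD43+ckit- libraries and 0.307, 0.109 and 0.313 CPM in the CD43++ckit+ libraries. The 3 populations did not overlap, although the values outside CD43-ckit- rest on at most 46 counts. Tecta averaged 90.8 ± 13.8 CPM in CD43-ckit- cells, against 1.16 ± 0.512 CPM in CD43+ckit- cells and 0.243 ± 0.116 CPM in CD43++ckit+ cells (SD, n = 3 each).

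Acta1 had 454, 531 and 363 counts in the CD43-ckit- libraries, against 6, 41 and 22 in the CD43+ckit- libraries and 2, 8 and 2 in the CD43++ckit+ libraries. These were 35.7, 34.8 and 26.1 CPM in the CD43-ckit- libraries, against 0.202, 1.37 and 0.705 CPM in the CD43+ckit- libraries and 0.0512, 0.219 and 0.0447 CPM in the CD43++ckit+ libraries. Here the lowest CD43+ckit- library fell just under the highest CD43++ckit+ library, so those populations overlapped. Acta1 averaged 32.2 ± 5.31 CPM in CD43-ckit- cells, against 0.761 ± 0.589 CPM in CD43+ckit- cells and 0.105 ± 0.0987 CPM in CD43++ckit+ cells (SD, n = 3 each).

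**Figure D1:**
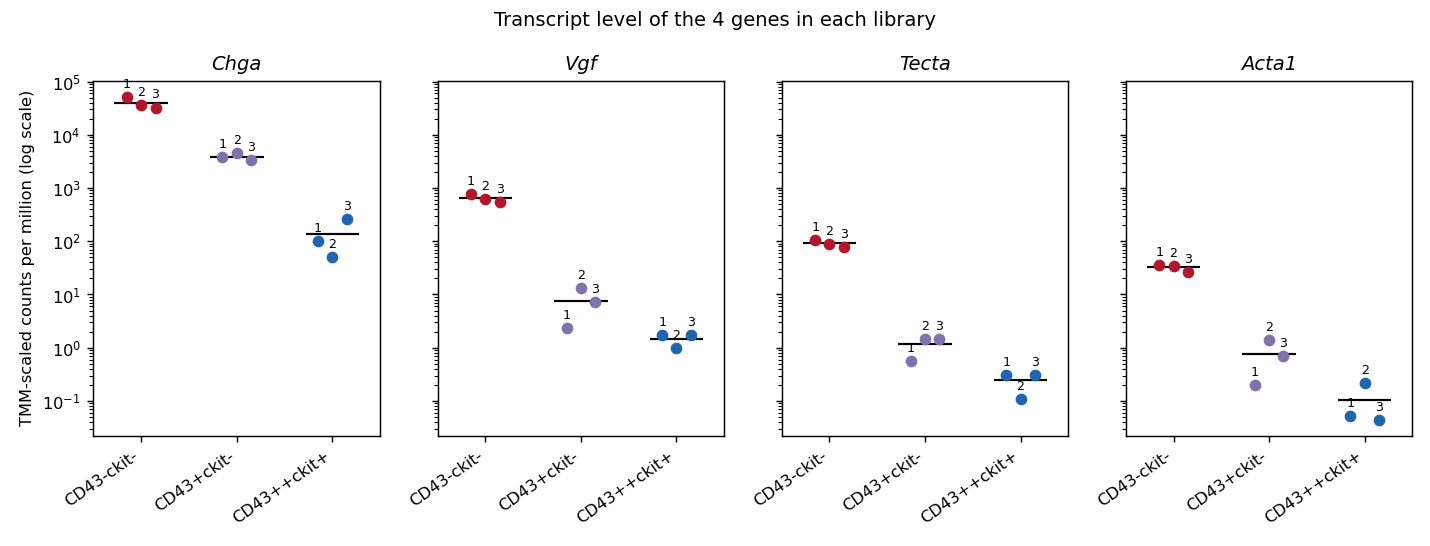
TMM-scaled CPM (log axis) of Chga, Vgf, Tecta and Acta1 in each library, with CD43-ckit- left, CD43+ckit- in the middle and CD43++ckit+ right; points are libraries with their replicate number and lines are means. The CD43-ckit- points stand above all others for each gene, and only for Acta1 do the CD43+ckit- and CD43++ckit+ points overlap.

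All 4 genes had every CD43-ckit- library above every CD43++ckit+ library, as had 30.5% of tested genes, and this is the contrast for which they were chosen. They also had every CD43-ckit- library above every CD43+ckit- library, as had 28.2% of tested genes. The 3 comparisons share libraries, so these orders are not independent of the choice. Chga, Vgf and Tecta had every CD43+ckit- library above every CD43++ckit+ library, as had 28.5% of tested genes. No test is given for the 4 genes for that reason. In each of them CD43-ckit- library 1 was the highest library with TMM. Scaled by library totals it was so for Chga alone, and library 2 was highest for Vgf (462 against 455 CPM in library 1), Tecta (65.1 against 62.1 CPM) and Acta1 (25.53 against 21.01 CPM). CD43+ckit- library 1 was the lowest of its population for Vgf, Tecta and Acta1, whereas for Chga library 3 was. In bulk libraries, fewer cells that make a transcript and less of it per cell cannot be told apart.

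The fitted log2 fold changes of CD43-ckit- over CD43++ckit+ were 8.18 ± 0.68 for Chga, 8.77 ± 0.67 for Vgf, 8.50 ± 0.46 for Tecta and 8.25 ± 0.78 for Acta1 (± SE). As ratios these were 291-fold, 438-fold, 361-fold and 304-fold, in the same gene order. They ranked 11, 5, 7 and 10 of 12573 genes by size of increase. Single libraries weighed on 2 of them: without CD43++ckit+ library 3 the Chga value was 9.03 (523-fold), and without CD43++ckit+ library 2 the Acta1 value was 9.24 (607-fold). Counting error alone left a wide range for the scarcest transcript. From 1348 Acta1 counts in CD43-ckit- and 12 in CD43++ckit+, the exact 95% interval of the ratio of summed counts ran from 184 to 626, against 268 to 277 for Chga.

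The increase was split differently between the populations. The log2 fold change of CD43-ckit- over CD43+ckit- was 3.37 ± 0.54 for Chga, 6.42 ± 0.60 for Vgf, 6.28 ± 0.41 for Tecta and 5.39 ± 0.66 for Acta1. Those of CD43+ckit- over CD43++ckit+ were 4.81 ± 0.58 for Chga, 2.35 ± 0.53 for Vgf, 2.22 ± 0.43 for Tecta and 2.85 ± 0.73 for Acta1. CD43+ckit- cells thus stood at 58.8% of the whole log2 difference for Chga, but at 26.8% for Vgf, 26.1% for Tecta and 34.6% for Acta1. Mean CD43+ckit- CPM was 9.66% of the CD43-ckit- mean for Chga, 1.17% for Vgf, 1.28% for Tecta and 2.37% for Acta1.

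The difference between both steps, CD43-ckit- over CD43+ckit- minus CD43+ckit- over CD43++ckit+, was -1.44 ± 0.84 for Chga, 4.06 ± 0.94 for Vgf, 4.06 ± 0.72 for Tecta and 2.54 ± 1.205 for Acta1 (log2 ± SE). Its sign thus set Chga apart from the other 3 genes, a description with no test. Several of these steps moved by more than 1.5-fold with 1 library. Without CD43++ckit+ library 3 the Chga step of CD43+ckit- over CD43++ckit+ was 5.67. Without CD43+ckit- library 2 the step of CD43-ckit- over CD43+ckit- was 7.11 for Vgf and 6.18 for Acta1, and that of CD43+ckit- over CD43++ckit+ was 1.67 for Vgf and 2.07 for Acta1. Without CD43++ckit+ library 2 the step of CD43+ckit- over CD43++ckit+ was 3.87 for Acta1.

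**Figure D2:**
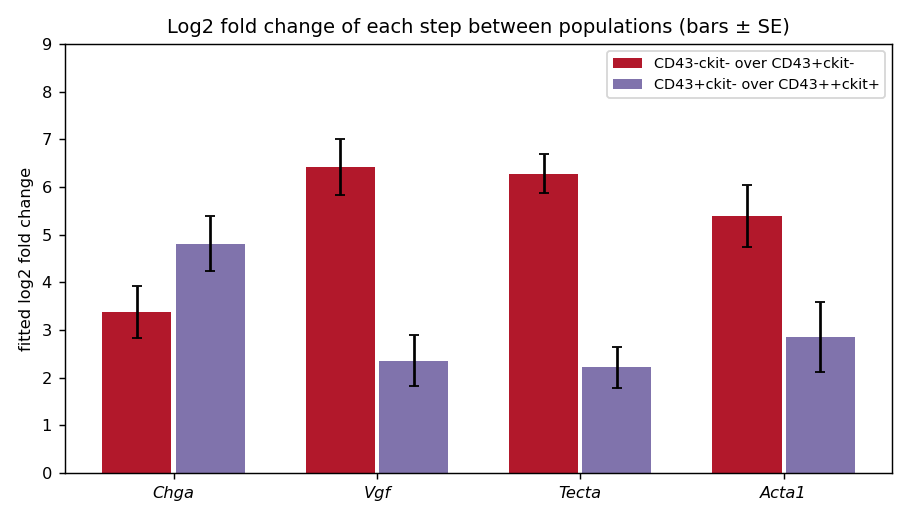
Fitted log2 fold change of CD43-ckit- over CD43+ckit- (left bar) and of CD43+ckit- over CD43++ckit+ (right bar) for each gene; error bars are SE. The right bar is the taller one for Chga (4.81 against 3.37), and the left bar is taller for Vgf, Tecta and Acta1.

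Ratios of counts within a library need no scaling and show the same split. There were 66.0, 58.4 and 60.7 Chga counts per Vgf count in the CD43-ckit- libraries, against 1586, 346 and 459 in the CD43+ckit- libraries and 59.6, 50.8 and 154 in the CD43++ckit+ libraries. The CD43+ckit- ratios lay above those of both other populations, which overlapped. Chga counts per Tecta count were 483, 415 and 416 in the CD43-ckit- libraries, against 6622, 3117 and 2266 in the CD43+ckit- libraries and 333, 457 and 837 in the CD43++ckit+ libraries, in the same arrangement. Per Acta1 count there were 1429, 1058 and 1249 Chga counts in the CD43-ckit- libraries, against 18764, 3269 and 4739 in the CD43+ckit- libraries and 1996, 228 and 5856 in the CD43++ckit+ libraries, where 2 to 8 Acta1 counts stand below each CD43++ckit+ ratio. Vgf and Tecta kept to a narrow ratio throughout: 7.32, 7.10 and 6.86 Vgf counts per Tecta count in the CD43-ckit- libraries, against 4.18, 9 and 4.93 in the CD43+ckit- libraries and 5.58, 9 and 5.43 in the CD43++ckit+ libraries.

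**Figure D3:**
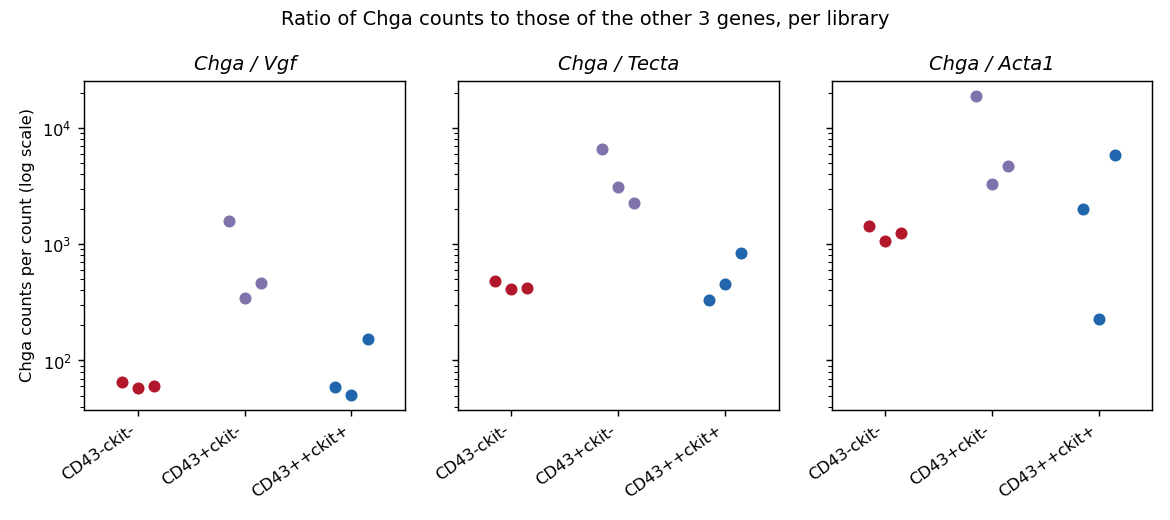
Chga counts per count of Vgf, Tecta or Acta1 in each library (log axis), CD43-ckit- left, CD43+ckit- in the middle, CD43++ckit+ right. The CD43+ckit- points are highest for Vgf (346 to 1586) and Tecta (2266 to 6622), while for Acta1 they overlap with CD43++ckit+.

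Levels of different genes were compared per kilobase of exon (GENCODE M21 lengths). In CD43-ckit-, Chga stood at 14548 ± 3503 CPM per kb and Vgf at 217.3 ± 40.0. Acta1 came next, at 16.96 to 23.2 CPM per kb across libraries, above Tecta at 10.6 to 14.2. In CD43+ckit- the mean levels were 1406 CPM per kb for Chga, 2.54 for Vgf, 0.495 for Acta1 and 0.157 for Tecta. There Vgf overlapped with Acta1 and Acta1 with Tecta between libraries. In CD43++ckit+ they were 50.03 CPM per kb for Chga, 0.493 for Vgf, 0.0683 for Acta1 and 0.0328 for Tecta, and the last 2 overlapped.

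The rows could largely be told from their relatives by sequence. Of all 50-base words in the GENCODE M21 transcripts of each gene, 99.9% for Chga, 100% for Vgf, 97.2% for Tecta and 98.0% for Acta1 occurred in no other annotated gene. Acta1 shared 0 such words with Actc1, the cardiac actin. Of its 1534 words, 31 occurred in other annotated genes, among them Actb, a cytoplasmic actin. Tecta overlaps the antisense gene Gm47629 and Acta1 overlaps Gm20388, on the opposite strand, in that annotation. Neither has a row in the table, and strand handling is not given, so reads of these partners cannot be told apart from those of Tecta and Acta1.

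Each gene was next set beside other genes of its tissue or family, in lists chosen with earlier results of these data known. Calls below are from edgeR's quasi-likelihood test at a Benjamini-Hochberg adjusted p under 0.05. Of all tested genes 67.4% were called between CD43-ckit- and CD43++ckit+, 27.7% higher and 39.7% lower in CD43-ckit-, with a median log2 fold change of -0.19. Log2 fold changes are given ± SE and mean levels ± SD over 3 libraries. Of 216 listed genes 120 were tested, and 52 were higher and 18 lower in CD43-ckit- (58.3% called, median 1.52). Between CD43-ckit- and CD43+ckit-, 42 were higher and 11 lower, 44.2% of the tested list genes against 51.9% of all tested genes (20.9% higher and 31% lower). With the replicate number as a block in a fit of those populations alone, 84 were called. Between CD43+ckit- and CD43++ckit+, 29 were higher and 18 lower, 39.2% of the tested list genes against 39.8% of all tested genes (20.1% higher and 19.7% lower). Without CD43++ckit+ library 3 that count was 72.

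The other granins were barely counted. Chgb, encoding chromogranin B, had 2 to 3 counts in each CD43-ckit- library, 2 to 3 in each CD43+ckit- library and 1 to 5 in each CD43++ckit+ library. Scg2, encoding secretogranin II, had 0 counts in every library. A count of 0 allows up to 0.139 to 0.167 CPM of the library total in CD43-ckit- and 0.0944 to 0.105 CPM in CD43++ckit+, taking 3 counts as the limit. Pcsk1n, which encodes the granin-like proSAAS, had 3 to 7 counts in CD43-ckit- and 0 in both other populations. The granin list held 6 genes, and 5 of them never exceeded 7 counts. The sixth, Gnas, whose locus also encodes the granin-like NESP55 beside the stimulatory G protein alpha subunit, was higher in CD43-ckit- by 1.53 ± 0.16 log2 (adjusted p = 5.4e-05, edgeR). Its levels were 2016, 1629 and 1419 CPM in the CD43-ckit- libraries, against 919, 852 and 757 CPM in the CD43+ckit- libraries and 563, 591 and 605 CPM in the CD43++ckit+ libraries. Counts per symbol do not separate the products of that locus.

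The prohormone convertases of endocrine granules were barely counted either. Pcsk1 had 0 counts in all libraries, Pcsk2 had 1 count in 1 CD43-ckit- library, and Cpe, encoding the carboxypeptidase that trims their products, never exceeded 4. Of 12 processing genes 7 were tested, 3 were higher and 3 lower in CD43-ckit- (median 0.93). Furin, the convertase of the constitutive secretory route, was higher by 1.51 ± 0.21 (adjusted p = 0.000281, edgeR). It had 769, 496 and 462 CPM in the CD43-ckit- libraries, against 501, 507 and 395 CPM in the CD43+ckit- libraries and 232, 191 and 184 CPM in the CD43++ckit+ libraries. Ctsl, encoding the lysosomal protease cathepsin L, was higher by 2.74 ± 0.78 (adjusted p = 0.012), or by 4.43 without CD43++ckit+ library 3. Cpd, encoding the Golgi carboxypeptidase D, was lower by a log2 fold change of -2.08 ± 0.25 (adjusted p = 0.000123).

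Of 32 genes of neuroendocrine identity and regulated secretion, 20 never exceeded 10 counts and 6 of these had 0 counts throughout, among them Snap25, a synaptic membrane fusion protein, and Npy, a neuropeptide. Of the 12 tested, 4 were higher and 3 lower in CD43-ckit- (median 0.32). Rph3al, which encodes a Rab effector of dense core granule exocytosis, had the largest increase. It had 113, 101 and 87.6 CPM in the CD43-ckit- libraries, against 5.58, 13.6 and 9.78 CPM in the CD43+ckit- libraries and 0.512, 0.164 and 1.32 CPM in the CD43++ckit+ libraries. The log2 fold change of Rph3al was 7.20 ± 0.66 over CD43++ckit+ (adjusted p = 3.48e-05, edgeR), or 8.17 without CD43++ckit+ library 3. Over CD43+ckit- it was 3.38 ± 0.54 (adjusted p = 0.00124). Ptprn, encoding the granule membrane protein IA-2, was higher by 4.43 ± 0.45 (adjusted p = 5.17e-05) at a low level, 2.08 ± 0.703 CPM in CD43-ckit- cells, against 0.462 ± 0.111 CPM in CD43+ckit- cells and 0.0918 ± 0.0165 CPM in CD43++ckit+ cells. Vamp2, encoding a vesicle membrane fusion protein, was higher by 1.99 ± 0.29 (adjusted p = 0.000351), and Uchl1, encoding a neuronal deubiquitinase, by 3.50 ± 0.74 (adjusted p = 0.00251), or by 4.30 without CD43++ckit+ library 3. Uchl1 had 10 to 23 counts in the CD43-ckit- libraries and 1 to 8 in CD43++ckit+, all of the latter under the filter's minimum count of 10. Slc18a2, the vesicular monoamine transporter gene, was lower, with a log2 fold change of -2.30 ± 0.57 (adjusted p = 0.00577, edgeR).

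Few other inner ear genes were counted beside Tecta. Tectb, encoding beta-tectorin, its partner in the tectorial membrane, had 0 counts in CD43-ckit- and at most 2 in any other library. Of 21 inner ear genes 7 were tested and 13 never exceeded 10 counts. Otoa, encoding otoancorin, which anchors the tectorial membrane, was lower in CD43-ckit- by a log2 fold change of -2.04 ± 0.26 (adjusted p = 0.000165, edgeR). It had 4.79, 9.49 and 9.69 CPM in the CD43-ckit- libraries, against 26.0, 29.2 and 23.8 CPM in the CD43+ckit- libraries and 38.7, 29.95 and 29.9 CPM in the CD43++ckit+ libraries. Col11a2, encoding a collagen XI chain, was higher by 0.91 ± 0.29 (adjusted p = 0.0183), a call lost without CD43++ckit+ library 1 or 2 or CD43-ckit- library 2 (adjusted p = 0.066 to 0.0742). Of 10 other zona pellucida domain genes 2 were tested. Neither passed the edgeR test between CD43-ckit- and CD43++ckit+, 0 had an unadjusted p under 0.05 and DESeq2 called 0.

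Few other skeletal muscle genes were counted beside Acta1. Of 33 other skeletal muscle genes 23 never exceeded 10 counts, and 5 of these had 0 counts throughout. Ckm, encoding muscle creatine kinase, had 0 counts in CD43-ckit- and at most 5 in any library, and Myog, encoding the muscle transcription factor myogenin, had 0 in all. Of the 9 tested, 3 were higher and 2 lower in CD43-ckit- (median 0.19). Tnnc2, encoding the troponin C of fast muscle fibres, had 25.8, 23.1 and 17.9 CPM in the CD43-ckit- libraries, against 0.773, 0.570 and 0.545 CPM in the CD43+ckit- libraries and 0.333, 0.164 and 0.179 CPM in the CD43++ckit+ libraries. Its log2 fold change over CD43++ckit+ was 6.60 ± 0.36 (adjusted p = 1.9e-06, edgeR) and over CD43+ckit- 5.13 ± 0.33 (adjusted p = 2.72e-05). Casq1, encoding the calcium store protein calsequestrin, was higher by 4.77 ± 0.78 over CD43++ckit+ (adjusted p = 0.000616), or by 5.82 without CD43++ckit+ library 3. Mylpf, a fast myosin light chain gene, was higher by 0.50 ± 0.16 (adjusted p = 0.0222), a call lost without CD43++ckit+ library 1 or CD43-ckit- library 1 or 3, and -0.42 when scaled by library totals. Mylpf was highest in CD43+ckit- cells, at 28.5 CPM, against 14.4 CPM in CD43-ckit- cells and 10.2 CPM in CD43++ckit+ cells. Its log2 fold change of CD43-ckit- over CD43+ckit- was -0.99 ± 0.16 (adjusted p = 0.00138, edgeR). Tnnt1, the slow troponin T gene, was lower, with a log2 fold change of -0.98 ± 0.15 (adjusted p = 0.000493). The other lower gene, Des, had a log2 fold change of -1.82 ± 0.69 (adjusted p = 0.0417, edgeR). The Des call was lost without CD43++ckit+ library 1 or 2, CD43+ckit- library 3 or CD43-ckit- library 1 or 3. Summed over the muscle list, levels were 77.0 to 82.0 CPM in the CD43-ckit- libraries, against 82.9 to 84.8 CPM in the CD43+ckit- libraries and 66.8 to 89.1 CPM in the CD43++ckit+ libraries.

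Of the 5 other actin genes, Actc1 had 0 counts in all libraries. Actb and Actg1, the cytoplasmic actins, were higher in CD43-ckit- by 1.24 ± 0.16 and 1.66 ± 0.23 (adjusted p = 0.000146 and 0.000252, edgeR), and Actg2, a smooth muscle actin, by 3.52 ± 0.80 (adjusted p = 0.0038) at under 1 CPM throughout. Without CD43++ckit+ library 2 or 3 the Actg2 value was 4.35 or 2.93. Acta2, the other smooth muscle actin, had 0.236, 0.982 and 2.01 CPM in the CD43-ckit- libraries, against 0.0672, 0.537 and 0.513 CPM in the CD43+ckit- libraries and 0.0256, 0 and 0.469 CPM in the CD43++ckit+ libraries. The Acta2 log2 fold change of 2.63 ± 1.24 did not pass the test (adjusted p = 0.0857), and without CD43++ckit+ library 3 it was 5.91 (adjusted p = 0.00409), against 1.83 without CD43-ckit- library 3 (adjusted p = 0.283).

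**Figure D4:**
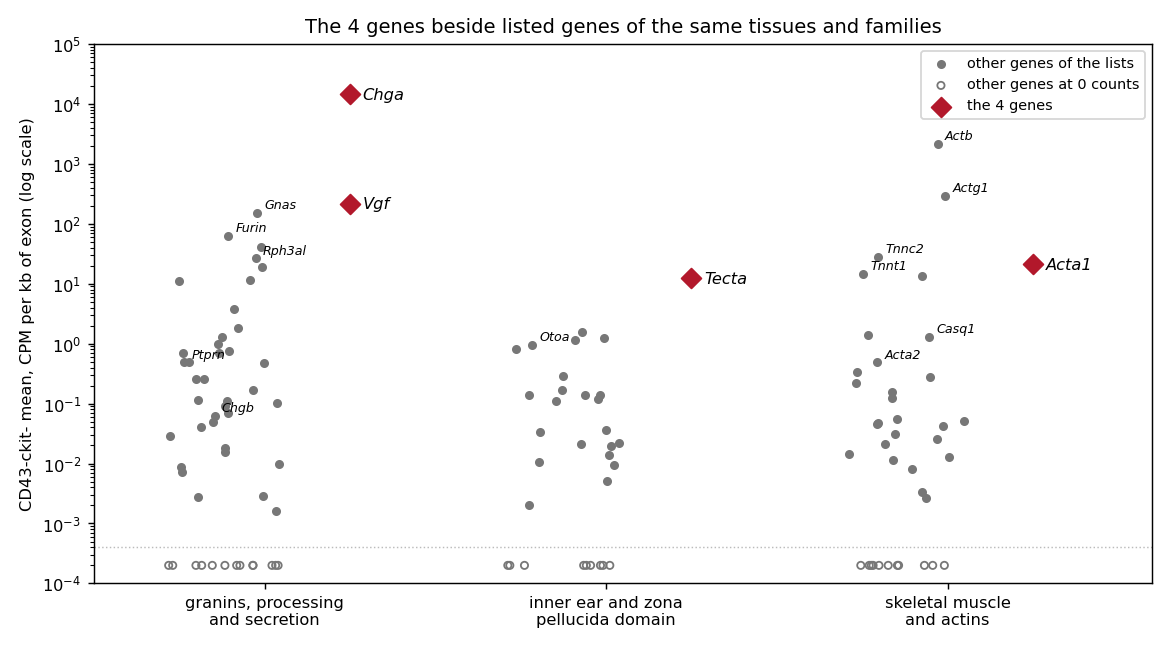
Mean CD43-ckit- level per kilobase of exon (log axis) of the 4 genes (diamonds) and of listed genes of the same families and tissues (points; open points below the dotted line had 0 counts in CD43-ckit-). Chga, Vgf and Tecta stand above every other gene plotted in their columns, while Acta1 stands below Actb, Actg1 and Tnnc2. The order of Vgf and Gnas depends on length. Gnas had 1688 CPM against 646 for Vgf, and was divided by 11186 bases of exon joined over all its annotated transcripts.

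Lists around REST, CREB and SRF were described in the same way. No REST binding site was searched for in the promoter windows. REST is the repressor that keeps neuronal genes off in other tissues. Rest itself had 59.0, 44.9 and 29.6 CPM in the CD43-ckit- libraries, against 37.0, 31.6 and 33.4 CPM in the CD43+ckit- libraries and 32.5, 37.8 and 30.5 CPM in the CD43++ckit+ libraries, and these overlapped. Its log2 fold change of 0.40 ± 0.22 did not pass the test (adjusted p = 0.134, edgeR), was 0.62 without CD43-ckit- library 3 (adjusted p = 0.0124) and -0.55 when scaled by library totals. Of 13 genes of its complex, 4 were higher and 4 lower. Sin3b, a corepressor scaffold, was higher by 1.68 ± 0.11 (adjusted p = 4.66e-06), and Hdac2, a histone deacetylase, was lower with a log2 fold change of -1.83 ± 0.20 (adjusted p = 7.09e-05). Of 15 genes listed as known REST targets 7 were tested, with 2 higher and 2 lower (median -0.88). Tubb3, a neuronal tubulin gene, had 20.0, 21.4 and 19.9 CPM in the CD43-ckit- libraries, against 1.61, 2.55 and 2.69 CPM in the CD43+ckit- libraries and 5.17, 5.36 and 3.39 CPM in the CD43++ckit+ libraries, higher by 2.14 ± 0.26 over CD43++ckit+ (adjusted p = 0.00012). Chrm4, a muscarinic receptor gene, was lower with a log2 fold change of -2.15 ± 0.24 (adjusted p = 7.78e-05).

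Of 8 CREB factors and coactivators 7 were higher in CD43-ckit- over CD43++ckit+ (median 1.18). The exception was Creb1 itself, with a log2 fold change of -0.029 ± 0.30 (adjusted p = 0.936, edgeR). Atf1, among the 7, turned to -0.20 when scaled by library totals, which moved the median of all genes by -0.91. Crtc3, also among the 7 at 0.42 ± 0.15 (adjusted p = 0.0378, edgeR), was not followed singly under that scaling. The histone acetyltransferase genes Crebbp and Ep300 were higher by 2.56 ± 0.22 and 2.36 ± 0.19 (adjusted p = 2.18e-05 and 1.5e-05, edgeR). Crebbp averaged 453.0 ± 155.3 CPM in CD43-ckit- cells, against 131.1 ± 2.07 CPM in CD43+ckit- cells and 76.97 ± 2.96 CPM in CD43++ckit+ cells. Crem, a CREB family factor, was higher by 1.89 ± 0.28 (adjusted p = 0.000356). Of 6 tested SRF genes and cofactors, 3 were higher and 1 lower (median 0.41). Srf had 71.9, 74.4 and 67.0 CPM in the CD43-ckit- libraries, against 45.2, 54.5 and 46.6 CPM in the CD43+ckit- libraries and 68.0, 63.5 and 64.2 CPM in the CD43++ckit+ libraries. Its log2 fold change over CD43++ckit+ was 0.12 ± 0.11 (adjusted p = 0.34), or -0.79 when scaled by library totals. Mkl1, the actin-sensing SRF coactivator gene, had 161, 161 and 138 CPM in the CD43-ckit- libraries, against 18.7, 37.4 and 26.2 CPM in the CD43+ckit- libraries and 13.6, 12.3 and 34.9 CPM in the CD43++ckit+ libraries. It was higher by 2.92 ± 0.42 over CD43++ckit+ (adjusted p = 0.000322), or by 3.56 without CD43++ckit+ library 3. Mkl2, another SRF cofactor gene of the list, was the 1 lower gene, with a log2 fold change of -1.36 ± 0.23 (adjusted p = 0.000743, edgeR). Mkl2 averaged 3.61 CPM in CD43-ckit- cells, against 5.43 CPM in CD43+ckit- cells and 9.26 CPM in CD43++ckit+ cells.

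The 3 nearest genes of the table on each side of Chga, Tecta and Acta1 were then examined (GENCODE M21 order). Of these 18 neighbours 13 were tested, and 5 were higher and 3 lower in CD43-ckit- over CD43++ckit+ (27.7% and 39.7% of all tested genes). The largest increases were those of Lgmn beside Chga and Tbcel beside Tecta.

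Lgmn, encoding the lysosomal protease legumain, is the second gene to the left of Chga, on the opposite strand. It averaged 1026 ± 146 CPM in CD43-ckit- cells, against 53.0 ± 23.9 CPM in CD43+ckit- cells and 5.69 ± 4.37 CPM in CD43++ckit+ cells. Its log2 fold change over CD43++ckit+ was 7.49 ± 0.68 (adjusted p = 3.39e-05, edgeR), or 8.30 without CD43++ckit+ library 3. Golga5, between them, had 0.58 ± 0.24 (adjusted p = 0.0592), which passed the test without CD43-ckit- library 3 or CD43+ckit- library 1 or 2 (adjusted p = 0.0341 to 0.0441). Tbcel, a tubulin cofactor gene that adjoins Tecta on the same strand, averaged 1864 ± 582 CPM in CD43-ckit- cells, against 223.5 ± 42.7 CPM in CD43+ckit- cells and 62.2 ± 4.17 CPM in CD43++ckit+ cells. For Tbcel the log2 fold change was 4.91 ± 0.27 (adjusted p = 1.91e-06). The neighbours of Acta1 had smaller values, between -1.73 ± 0.18 for Rab4a, a small GTPase gene, and 2.04 ± 0.23 for Abcb10, a mitochondrial transporter gene with a role in red cell maturation (adjusted p = 4.95e-05 and 8.86e-05).

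**Figure D5:**
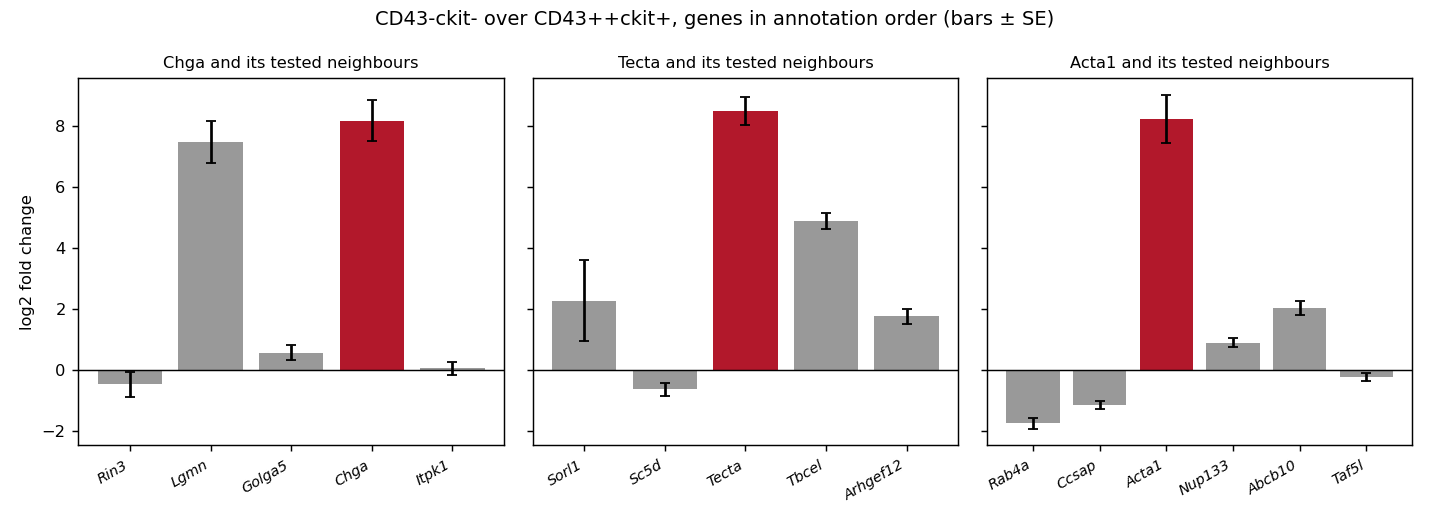
Log2 fold change of CD43-ckit- over CD43++ckit+ (bars ± SE) for Chga, Tecta and Acta1 (red) and their tested neighbours (grey) in annotation order. Lgmn and Tbcel have the tallest grey bars (7.49 and 4.91).

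Across the 9 libraries, log2 CPM of Vgf and Tecta correlated at 0.997 (Pearson), Vgf and Acta1 at 0.986, and Tecta and Acta1 at 0.977, whereas Chga correlated at 0.885 to 0.907 with the other 3. These 9 points fall into 3 populations that share depth and composition, so the values describe the order of the populations more than variation within them. Among 8014 other genes averaging at least 3 in log2 CPM, those most like Chga were Gpr146, encoding an orphan receptor, Ifi27l2a, Ifit1 and Oasl2, interferon-stimulated genes, and Fhdc1, a formin gene (r = 0.996 to 0.998). Fhdc1 averaged 2555 ± 641 CPM in CD43-ckit- cells, against 382.9 ± 40.2 CPM in CD43+ckit- cells and 39.6 ± 18.1 CPM in CD43++ckit+ cells. Among the genes most like Vgf were Sertad1, a cell cycle regulator gene, Ube2c, a mitotic ubiquitin enzyme gene, Tubb4b, a tubulin gene, and Hexim1, an inhibitor of transcription elongation (r = 0.995 to 0.996). Tecta was most like Vgf, Ube2c, Tob1, an antiproliferative gene, Hexim1 and Tubb4b. Tubb4b, Sertad1, Vgf and Srxn1, an antioxidant enzyme gene, were among those most like Acta1 (r = 0.986 to 0.987). Of all these genes 12.8% exceeded 0.9 with Chga, 9.66% with Vgf, 9.99% with Tecta and 9.57% with Acta1. Those above 0.98 made up 2.08%, 1.16%, 1.43% and 0.437%, in the same gene order.

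Markers of other cell types differed between populations as well, and their part in the results above was not tested. Summed erythroid markers stood at 30660 to 48193 CPM in the CD43-ckit- libraries, against 15184 to 18008 CPM in the CD43+ckit- libraries and 2182.5 to 2922 CPM in the CD43++ckit+ libraries, and 9 of 10 were called higher when CD43-ckit- was set against CD43++ckit+. Alas2, the erythroid haem synthesis gene, averaged 9121 CPM in CD43-ckit-. Neutrophil markers summed to 4239 to 16678 CPM in the CD43-ckit- libraries, against 519 to 3405 CPM in the CD43+ckit- libraries and 101 to 6371 CPM in the CD43++ckit+ libraries. Of these 10 genes edgeR called 0 between CD43-ckit- and CD43++ckit+, 1 had an unadjusted p under 0.05, and DESeq2 called 3. Macrophage markers summed to 129 to 170 CPM in the CD43-ckit- libraries, against 14.1 to 36.4 CPM in the CD43+ckit- libraries and 13.7 to 94.4 CPM in the CD43++ckit+ libraries, with 2 of 9 called higher over CD43++ckit+. B-lineage markers summed to 78.5 to 210 CPM in the CD43-ckit- libraries, against 13.5 to 40.8 CPM in the CD43+ckit- libraries and 3.47 to 22.9 CPM in the CD43++ckit+ libraries, with 7 of 7 called higher. Stroma, endothelium and bone markers summed to 21.3 to 32.8 CPM in the CD43-ckit- libraries, against 11.3 to 12.4 CPM in the CD43+ckit- libraries and 1.97 to 14.6 CPM in the CD43++ckit+ libraries, with 2 of 5 tested called higher. CD43++ckit+ library 3, the highest of its population for Chga, also had the highest erythroid, neutrophil, macrophage, B-lineage and stromal sums there. The other 3 genes did not stand out in that library. Vgf and Tecta were close to library 1 (1.70 against 1.72 CPM and 0.313 against 0.307 CPM), and Acta1 was lowest, at 0.0447 CPM. CD43-ckit- library 1, the highest for all 4 genes with TMM, had the highest erythroid, macrophage and B-lineage sums and the lowest neutrophil and stromal sums of its population. These sums are TMM-scaled as well, and that library had the lowest TMM factor of all, 0.589. The marker sums were not scaled by library totals. Ptprc, the pan-leukocyte gene CD45, was low at 36.1, 95.4 and 81.4 CPM in the CD43-ckit- libraries, against 6.83, 15.6 and 17.1 CPM in the CD43+ckit- libraries and 3.81, 1.83 and 26.3 CPM in the CD43++ckit+ libraries. Spn and Kit, which encode the sorted CD43 and c-Kit, were highest in CD43++ckit+, at 502.4 ± 63.7 and 164.2 ± 15.9 CPM there.

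Total counts ran from 17966197 to 21609537 in the CD43-ckit- libraries, against 27378734 to 28214639 in the CD43+ckit- libraries and 28530150 to 31781746 in the CD43++ckit+ libraries. The 10 most abundant genes took 12.2% to 14.1% of the counts in the CD43-ckit- libraries, against 5.43% to 5.65% in the CD43+ckit- libraries and 4.29% to 4.80% in the CD43++ckit+ libraries, and TMM factors were 0.589 to 0.776 in the CD43-ckit- libraries, against 1.05 to 1.14 in the CD43+ckit- libraries and 1.26 to 1.41 in the CD43++ckit+ libraries. Scaled by library totals, the 4 genes kept their direction, with values of 7.20, 7.83, 7.57 and 7.33 over CD43++ckit+ for Chga, Vgf, Tecta and Acta1. That scaling moved the median of all genes by -0.91, and 17.8% of calls were then higher in CD43-ckit-, against 41.1% with TMM. With TMM factors computed without the 4 genes, the values over CD43++ckit+ were 8.18, 8.77, 8.50 and 8.25 in that gene order.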

How the data were processed

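Total RNA was turned into sequencing libraries with Illumina's TruSeq kit, as the labels' protocols state. The authors deposited 1 table of raw read counts, with a gene symbol in each row and 9 library columns. The submitters' processing notes list CASAVA 1.8, TopHat2 2.0.4, RSEM, HTSeq and edgeR but no role for any of them. A human build is listed there for mouse symbols. The mouse build, annotation and strand setting behind the counts were not given in the sources used here.

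From 24391 rows, edgeR 4.0.16 (R 4.3.3) kept 12573 genes with filterByExpr (minimum count 10, minimum total count 15), applied TMM scaling and fitted 1 mean per population to all 9 libraries (robust glmQLFit, glmQLFTest). A call needs an adjusted p (Benjamini-Hochberg) under 0.05. A standard error is the size of a log2 fold change divided by the square root of F. Log2 CPM used a prior count of 2.

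The 4 genes and the 17 gene lists were chosen with earlier results of these data known. The text names the 4 genes, and from each list up to 6 called genes with the smallest adjusted p together with named relatives of the 4 genes. It also names genes among the 5 most correlated with each, and neighbours of Chga, Tecta and Acta1. Some genes that these rules would name are not reported here. List genes named beyond this, because they had few or no counts or because they were not called (Creb1), were chosen after their values were seen. Exon lengths, gene order and 50-base words came from GENCODE M21 (GRCm38), and promoters from RefSeq.

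Same-numbered libraries of CD43-ckit- and CD43+ckit- deviated together from their group means (r = 0.525, 0.366 and 0.303). Some differently numbered libraries reached 0.349 and 0.343, so these values do not settle a pairing by number. Same-numbered libraries of CD43-ckit- and CD43++ckit+ did not all deviate together (0.262, -0.318 and 0.252). The main fit used no replicate block, and pairing by number entered only alternative fits. Counts of replicates disagreed beyond sampling error (chi-square at least 15.1 per degree of freedom), so none was a copy of another. Alternatives covered scaling, filter, test (DESeq2 1.42.0), pairing, samples in the fit and leaving out each library.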

Additional observations from a re-analysis of the deposited data

How the results depend on the processing

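The log2 fold changes of Chga, Vgf, Tecta and Acta1 kept their sign under every alternative run. Scaled by library totals, they moved to 7.20, 7.83, 7.57 and 7.33 for CD43-ckit- over CD43++ckit+, and Chga and Tecta to 2.70 and 5.61 for CD43-ckit- over CD43+ckit-. The same scaling turned the sign of 9 values of named genes over CD43++ckit+ (Mylpf -0.42, Atf1 -0.20, Elk4 -0.25, Itpk1 -0.83, Znhit1 -0.52, Ap1s1 -0.88, Nup133 -0.027, Rest -0.55 and Srf -0.79). It turned 8 over CD43+ckit- (Pcsk7 -0.36, Furin -0.38, Crtc1 -0.527, Atf1 -0.0504, Gata1 -0.34, Golga5 -0.57, Ap1s1 -0.57 and Srf -0.10). By construction it leaves the composition of each library uncorrected, and it moved the median of all genes by -0.91, -0.65 and -0.27 in the 3 comparisons. DESeq2 size factors moved that median by 0.24 for CD43-ckit- over CD43++ckit+, where 50.5% of calls were then higher, and by 0.20 over CD43+ckit-, where 54.2% were, against 40.3% with TMM and 14.8% with library totals.

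With the replicate block in the fit of all libraries, list genes called numbered 83, 55 and 44 in the order CD43-ckit- over CD43++ckit+, CD43-ckit- over CD43+ckit- and CD43+ckit- over CD43++ckit+. In fits of 2 populations with the replicate block, chosen after seeing the data, 84 list genes were called for CD43-ckit- over CD43+ckit-, and the calls in that comparison gained by named genes included Vamp2, Uchl1 and Rest. Another setting chosen after seeing the data left out the least correlated library of each population (CD43-ckit- 1, CD43+ckit- 1 and CD43++ckit+ 3). It called 84 list genes for CD43-ckit- over CD43+ckit-, and for CD43+ckit- over CD43++ckit+ 86 list genes and 8557 genes, gave Chga 5.69 there and turned Actg1 to 0.40. The cause was not tested.

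Leaving out 1 library at a time, list genes called for CD43+ckit- over CD43++ckit+ ranged from 36 to 72, and Acta1 from 2.07 to 3.87 there and from 7.86 to 9.24 for CD43-ckit- over CD43++ckit+. Acta1 did not pass the filter in fits of CD43+ckit- and CD43++ckit+ alone. Counts of 2 to 14 for Tecta and Acta1 in CD43++ckit+ limit the precision of their ratios.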
